A study of Mus musculus with 185 samples.

Results

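The CCN family was examined in single cells of the mouse heart, with and without myocardial infarction (MI). CCN proteins are secreted matricellular proteins, which sit in the extracellular matrix and signal to cells rather than hold the matrix together. They share modules that resemble parts of insulin-like growth factor binding proteins, von Willebrand factor and thrombospondin, they act largely through integrins and co-receptors such as Lrp1, and several of them are known from wound healing and fibrosis. The members were taken by symbol, under the older names of the deposited table, as Cyr61 (now Ccn1), Ctgf (Ccn2), Nov (Ccn3), Wisp1 (Ccn4) and Wisp2 (Ccn5), so that 5 of the 17171 genes listed were described, and values are also given for Wisp3 (Ccn6), the remaining gene of the family.

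Non-myocyte cells were sorted from hearts of C57BL/6 mice (backcross N = 6, approximately 5 months of age), captured singly on the Fluidigm C1 system and sequenced, which gave 33 cells of uninjured hearts and 152 cells of the infarct a week after MI. The mice were Postn MCM/+ for Postn tracing or Tcf21 MCM/+ for Tcf21 tracing and carried the reporter R26-eGFP, in which a tamoxifen-inducible Cre knocked into the gene of periostin or of the fibroblast factor Tcf21 turns on eGFP, so that every cell of a Postn MCM/+ heart has a single intact Postn allele. Tamoxifen was given to all of them, MI was made by permanent ligation of the left coronary artery, and a cell was called traced if it held eGFP at capture. Cre recombination is incomplete, so that untraced cells can belong to the same lineage as traced cells.

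Uninjured hearts (sham hearts in the text of the study) gave 33 cells, all from the capture named Jul24. Of these, 17 were Tcf21-traced (resident Tcf21-traced), 12 were labelled negative for Postn, CD31 and CD45 (resident Postn-negative), 3 were Postn-positive with Tcf21, and 1 was Postn-positive and untraced. In the infarct, the capture Jul29 held 27 Postn-traced cells and 24 activated Postn-negative cells, the capture Nov4 held 44 activated Tcf21-traced cells, and the capture Nov11 held 29 untraced cells from the scar. A further 28 untraced Postn-positive cells were spread over Jul29 (6), Nov4 (19) and Nov11 (3). The labels do not give the genotype of a class, which was taken from the methods of the study. Untraced may therefore refer to Postn tracing in Jul29, which held Postn-traced cells, and to Tcf21 tracing in Nov4, which held Tcf21-traced cells. CD31 and CD45 mark endothelial and blood cells, and cells with either were gated out by the sort. Injury and capture cannot be told apart, because no uninjured cell came from the captures of infarct cells. A passage of the study places all cells of injured hearts in the infarct. Its methods, however, describe a dissection of both injured and uninjured parts of the ventricle before the sort. A legend places a control population of CD31-, CD45- cells in the remote region. The labels of the activated Postn-negative and untraced Postn-positive cells name no region.

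Values are log2 (TPM+1), where TPM (transcripts per 1000000 transcripts) is an abundance per transcript length with a fixed sum over the genes of a cell, so that genes can be compared within a cell. A gene was called detected in a cell above 5 TPM. No test was run, because the cells pool several mice, the labels do not say which mouse a cell came from, and a class is therefore a single sample (n = 1). Every SD is the spread between cells. Shares of cells are given with exact 95% Clopper-Pearson intervals, which cover counting error only. The number of reads per cell was not used here, and the number of detected genes stands in for depth. Its median was 2091.5 in resident Postn-negative, 2264 in resident Tcf21-traced, 2342 in activated Postn-negative, 3134 in activated Tcf21-traced, 3177 in untraced scar, 3280.5 in untraced Postn-positive and 3643 in Postn-traced cells. Of the 29 scar cells, 5 had fewer than 300 detected genes and held none of the CCN genes, and the means and shares of the CCN genes in that class are therefore given with and without them.

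The labels name lineage marks and no cell type, and the cells were checked against markers. At least 3 of 6 fibroblast markers (Col1a1, Col3a1, Pdgfra, Tcf21, Dcn and Lum) were detected in 180 cells, 148 of them among the 152 infarct cells. For markers of other cell types the corresponding number was 0 for endothelial cells (4 of the 6 genes are listed in the table), 2 for myeloid cells, 2 for pericytes, 2 for cardiomyocytes, 1 for epicardial cells, 1 for Schwann cells and 22 for smooth muscle. The 22 were all infarct cells, and over all 152 infarct cells Tagln was the most abundant smooth muscle marker. Of the 2 cells with myeloid markers, 1 was a resident Postn-negative cell and 1 a scar cell. The mean of the summed myeloid markers was 1503 TPM in resident Postn-negative and 12.4 TPM in activated Postn-negative cells.

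Of the 5 members, Cyr61 was the most widely detected (143 of all cells), followed by Ctgf (123), Wisp2 (70), Wisp1 (50) and Nov (17). Cyr61 was present in every class, in resident cells as in infarct cells. Ctgf was detected in a minority of the resident cells and in most infarct cells. Wisp1 and Wisp2 were detected in infarct cells other than the activated Postn-negative class, except for Wisp1 in 1 and Wisp2 in 2 activated Postn-negative cells and Wisp2 in 1 resident cell. Nov was sparse, and was detected in none of the 33 resident cells. The plot of members by cell shows these distributions.

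**Figure D1:**
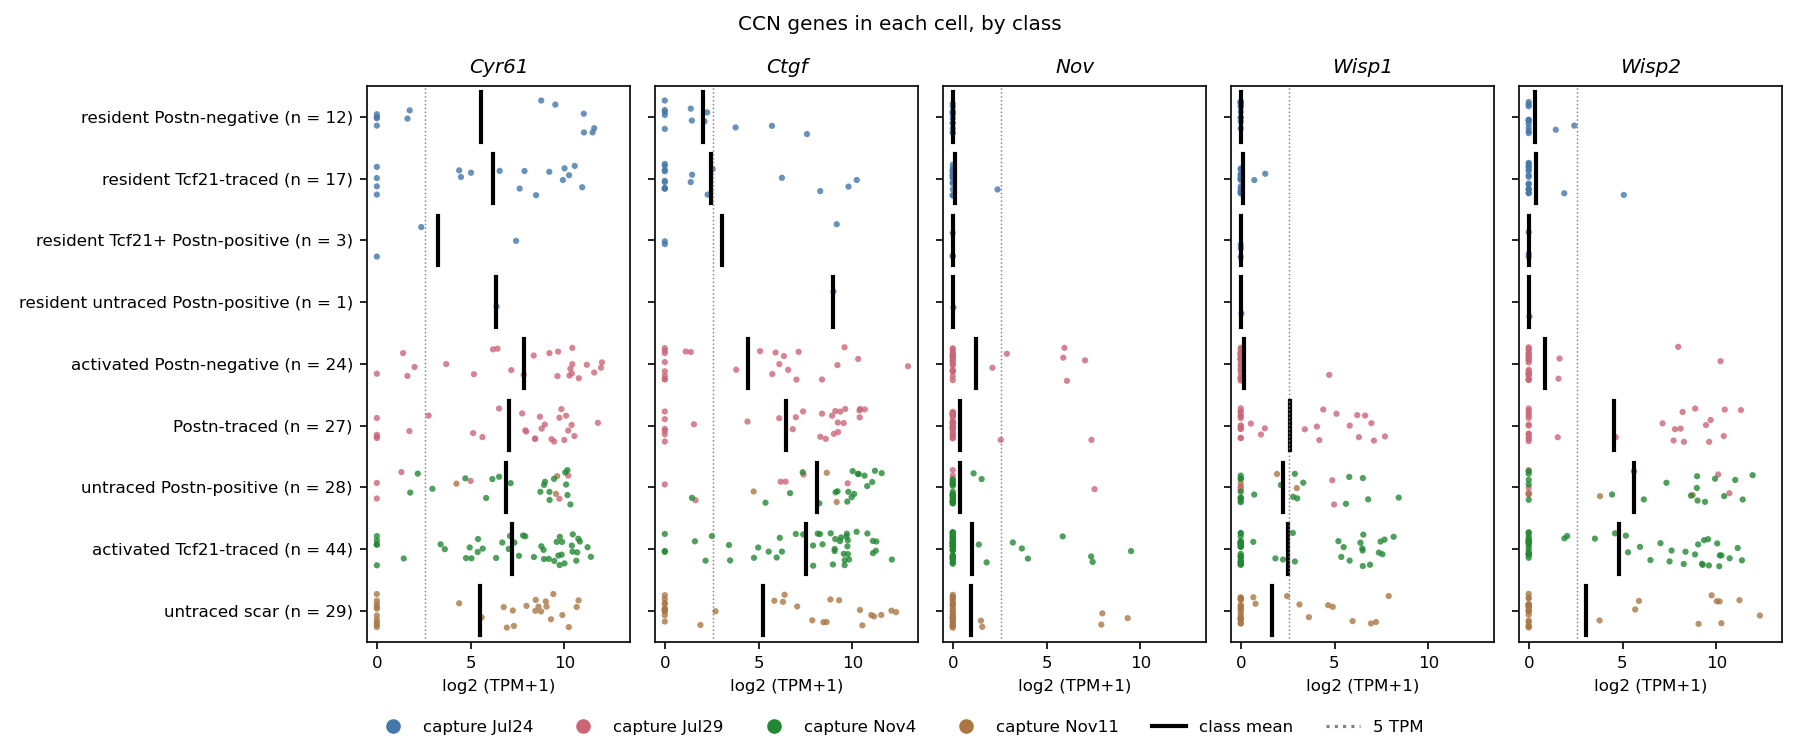
Level of each CCN gene in each cell, in log2 (TPM+1), by class. Points are cells coloured by capture, black bars are class means and the dotted line marks 5 TPM. Every large class has Cyr61 points above the line and at 0, and Wisp1 and Wisp2 have few points above the line in the resident and activated Postn-negative classes (Wisp1 at 4.71, Wisp2 at 5.07, 7.97 and 10.22).

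Cyr61, an integrin-binding protein whose gene is induced within minutes by serum or mechanical strain, lies at chr3:145646971-145649985 on the minus strand (GRCm38.p6) with 5 exons and 379 codons. Its promoter is shown because it is the 1 member of the 5 matched in the promoter file at hand (RefSeq, GRCm38.p6), where entries for Ctgf, Nov, Wisp1 and Wisp2 were missing. The 250 bases before its annotated start, chr3:145649986-145650235 on the minus strand, are given with matches to 3 motifs in capitals.
Cyr61 upstream: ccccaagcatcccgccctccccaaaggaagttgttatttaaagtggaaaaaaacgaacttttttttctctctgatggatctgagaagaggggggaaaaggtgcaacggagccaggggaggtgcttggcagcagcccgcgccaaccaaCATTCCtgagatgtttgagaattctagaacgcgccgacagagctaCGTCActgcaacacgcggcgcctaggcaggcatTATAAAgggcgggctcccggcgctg
The capitals mark, in order, CATTCC, which is the TEAD motif GGAATG on the other strand, CGTCA, which is the cAMP response element core TGACG on the other strand, and the TATA box TATAAA, which starts 25 bases before the annotated start. Both strands were searched, and the matches do not overlap. Among 32851 promoters of the same length, GGAATG was present in 12.6%, TGACG in 17.8% and TATAAA in 12.4%. The AP-1 motif TGANTCA (6.75% of promoters), the SMAD motif GTCTAGAC (0.167%) and the CArG box of serum response factor (1.47%) had no match in this window. These matches are a description of letters and not of bound sites.

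In resident cells Cyr61 ranged from 0 to 11.59 with a median of 5.26 in the 12 Postn-negative cells, and from 0 to 10.95 with a median of 7.61 in the 17 Tcf21-traced cells. In the infarct the median was 9.41 in activated Postn-negative cells (range 0 to 12), 8.44 in Postn-traced cells (0 to 11.78), 8.81 in untraced Postn-positive cells (0 to 10.31), 8.14 in activated Tcf21-traced cells (0 to 11.41) and 7.25 in scar cells (0 to 10.75). The classes thus overlapped over almost their whole range. The 3 resident cells with Tcf21 and Postn stood at 0, 2.37 and 7.42, and the untraced resident cell stood at 6.34. In order of the mean, Cyr61 stood at 7.82 ± 3.69 (SD) in activated Postn-negative, 7.19 ± 3.50 in activated Tcf21-traced, 7.04 ± 3.75 in Postn-traced, 6.86 ± 3.46 in untraced Postn-positive, 6.19 ± 4.08 in resident Tcf21-traced, 5.57 ± 5.32 in resident Postn-negative and 5.47 ± 4.26 in scar cells. None of the 6 steps between neighbours in that order exceeded the SD of either class, and the widest was 0.67. Without the 5 low scar cells the scar mean was 6.61 ± 3.77. Cyr61 was detected in 6 of 12 resident Postn-negative cells (50%, with an interval of 21.1% to 78.9%) and also in 13 of 17 resident Tcf21-traced cells (76.5%, 50.1% to 93.2%). In the classes of the infarct its share ran from 65.5% of scar cells (45.7% to 82.1%, or 79.2% without the 5 low cells) to 86.4% of activated Tcf21-traced cells (72.6% to 94.8%), and all these intervals overlap.

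Ctgf, the connective tissue growth factor, is a cofactor of fibrogenic signalling that is induced by TGF-β and by the YAP/TEAD transcription factors. It lies at chr10:24595442-24598683 on the plus strand with 5 exons and 348 codons. Its median was 1.41 in resident Postn-negative cells (range 0 to 7.58) and 0 in resident Tcf21-traced cells (0 to 10.23). In the infarct the median was 5.40 in activated Postn-negative cells (0 to 12.96), 8.38 in Postn-traced cells (0 to 10.66), 9.18 in untraced Postn-positive cells (0 to 11.56), 8.90 in activated Tcf21-traced cells (0 to 12.10) and 6.30 in scar cells (0 to 12.33). The highest Ctgf value of all cells, 12.96, was thus in an activated Postn-negative cell. By mean the order was untraced Postn-positive (8.10 ± 3.08), activated Tcf21-traced (7.51 ± 3.31), Postn-traced (6.46 ± 4.01), scar (5.25 ± 4.79, or 6.34 ± 4.55 without the 5 low cells), activated Postn-negative (4.44 ± 4.06), resident Tcf21-traced (2.48 ± 3.70) and resident Postn-negative (2.02 ± 2.50). No step between neighbours exceeded the SD of either class. The widest, 1.96, lay between the activated Postn-negative and the resident Tcf21-traced class. The first place rests on the capture Nov4 (9.10 ± 2.45 in 19 cells), since the untraced Postn-positive cells stood at 5.23 ± 3.68 in Jul29 (6 cells), below the Postn-traced cells, and at 7.51 ± 2.42 in Nov11 (3 cells).

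Ctgf was detected in 3 of 12 resident Postn-negative cells (25%, with an interval of 5.49% to 57.2%) and also in 4 of 17 resident Tcf21-traced cells (23.5%, 6.81% to 49.9%). It was detected in 14 of 24 activated Postn-negative cells (58.3%, 36.6% to 77.9%), in 20 of 27 Postn-traced cells (74.1%, 53.7% to 88.9%), in 38 of 44 activated Tcf21-traced cells (86.4%, 72.6% to 94.8%) and in 25 of 28 untraced Postn-positive cells (89.3%, 71.8% to 97.7%). The intervals of the last 3 classes lie above that of the resident Tcf21-traced class, but that of the Postn-traced class overlaps the resident Postn-negative one. In the scar 17 of 29 cells held Ctgf (58.6%, 38.9% to 76.5%, or 70.8% and 48.9% to 87.4% without the low cells). This interval, like that of the activated Postn-negative class, overlaps those of both resident classes. Of the resident cells labelled Postn-positive, the untraced cell stood at 8.94 and the 3 cells with Tcf21 stood at 0, 0 and 9.16, and Nov, Wisp1 and Wisp2 were listed at 0 in all of them.

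Wisp1, a target of Wnt signalling that is known to act on fibroblast proliferation, lies at chr15:66891369-66923201 on the plus strand with 5 exons and 367 codons. It was listed at 0 in all 12 resident Postn-negative cells and did not exceed 1.31 in resident Tcf21-traced cells. In the activated Postn-negative cells 23 of 24 were at 0 and the remaining cell stood at 4.71. The median was 1.08 in Postn-traced cells (range 0 to 7.69), 1.33 in untraced Postn-positive cells (0 to 8.42), and 0 in activated Tcf21-traced cells (0 to 8.15) and scar cells (0 to 7.89). By mean, Postn-traced (2.62 ± 2.93), activated Tcf21-traced (2.49 ± 3.13), untraced Postn-positive (2.24 ± 2.63) and scar cells (1.66 ± 2.63, or 2.01 ± 2.77 without the 5 low cells) differed by less than their SD from each to the next. The activated Postn-negative (0.20 ± 0.96), resident Tcf21-traced (0.12 ± 0.35) and resident Postn-negative cells (0) followed. The step from the scar to the activated Postn-negative cells, 1.47, exceeded the SD of the latter but not that of the former. Wisp1 was detected in 12 of 27 Postn-traced cells (44.4%, interval 25.5% to 64.7%), 12 of 28 untraced Postn-positive cells (42.9%, 24.5% to 62.8%), 17 of 44 activated Tcf21-traced cells (38.6%, 24.4% to 54.5%) and 8 of 29 scar cells (27.6%, 12.7% to 47.2%, or 33.3% without the low cells). It was detected in 1 of 24 activated Postn-negative cells (4.17%, 0.105% to 21.1%) and in 0 of 33 resident cells, which allows a share of up to 10.6%.

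Wisp2 is the shortest member, with 251 codons, and lacks the C-terminal cystine knot module of the others. It lies at chr2:163820752-163833146 on the plus strand and has 5 exons. It was listed at 0 in 10 of 12 resident Postn-negative cells (highest value 2.43), 15 of 17 resident Tcf21-traced cells (highest 5.07) and 20 of 24 activated Postn-negative cells (highest 10.22). The median was 4.64 in Postn-traced cells (range 0 to 11.31), 6.74 in untraced Postn-positive cells (0 to 11.93), 5.24 in activated Tcf21-traced cells (0 to 11.36) and 0 in scar cells (0 to 12.32). The distribution was thus split between cells at 0 and cells at a high level. By mean the order was untraced Postn-positive (5.59 ± 4.64), activated Tcf21-traced (4.83 ± 4.40), Postn-traced (4.56 ± 4.53), scar (3.04 ± 4.54, or 3.67 ± 4.76 without the 5 low cells), activated Postn-negative (0.89 ± 2.59), resident Tcf21-traced (0.41 ± 1.29) and resident Postn-negative (0.32 ± 0.78). No step between neighbours exceeded the SD of either class, and the widest, 2.15, lay between the scar and the activated Postn-negative class. Here too the first place rests on Nov4 (6.48 ± 4.41), as the untraced Postn-positive cells stood at 3.47 ± 5.37 in Jul29 and at 4.18 ± 4.39 in Nov11. Wisp2 was detected in 14 of 27 Postn-traced cells (51.9%, interval 31.9% to 71.3%), 18 of 28 untraced Postn-positive cells (64.3%, 44.1% to 81.4%), 25 of 44 activated Tcf21-traced cells (56.8%, 41% to 71.7%) and 10 of 29 scar cells (34.5%, 17.9% to 54.3%, or 41.7% without the low cells). In activated Postn-negative cells it was detected in 2 of 24 (8.33%, 1.03% to 27%), an interval below those of the first 3 classes, and among the 33 resident cells in 1 (3.03%, 0.0767% to 15.8%).

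Nov, a member that opposes Ctgf in several experimental settings, lies at chr15:54745910-54753762 on the plus strand with 5 exons and 354 codons. Its median was 0 in all 9 classes. It was detected in 5 of 24 activated Postn-negative cells (20.8%, interval 7.13% to 42.2%), 7 of 44 activated Tcf21-traced cells (15.9%, 6.64% to 30.1%), 3 of 29 scar cells (10.3%, 2.19% to 27.4%, or 12.5% without the low cells), 1 of 27 Postn-traced cells (3.70%, 0.0937% to 19%) and 1 of 28 untraced Postn-positive cells (3.57%, 0.0904% to 18.3%). It was detected in 0 of 33 resident cells, which allows a share of up to 10.6%. These intervals overlap, so no order of the classes can be read from them. By mean, activated Postn-negative (1.25 ± 2.40), activated Tcf21-traced (1.01 ± 2.34) and scar cells (0.98 ± 2.61, or 1.18 ± 2.83 without the 5 low cells) came before Postn-traced (0.37 ± 1.49), untraced Postn-positive (0.36 ± 1.45), resident Tcf21-traced (0.14 ± 0.58) and resident Postn-negative cells (0). Except for the last, each step was within the SD of either class. The highest Nov value was 9.5, in an activated Tcf21-traced cell, and the 3 scar cells with Nov stood at 7.92, 7.97 and 9.32. Wisp3 was detected in a single resident Tcf21-traced cell, at 3.38, and was listed at 0 in the other 184 cells, so that 0 of 152 infarct cells held it, which allows a share of up to 2.40%. The plot of shares of cells sets the members side by side.

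**Figure D2:**
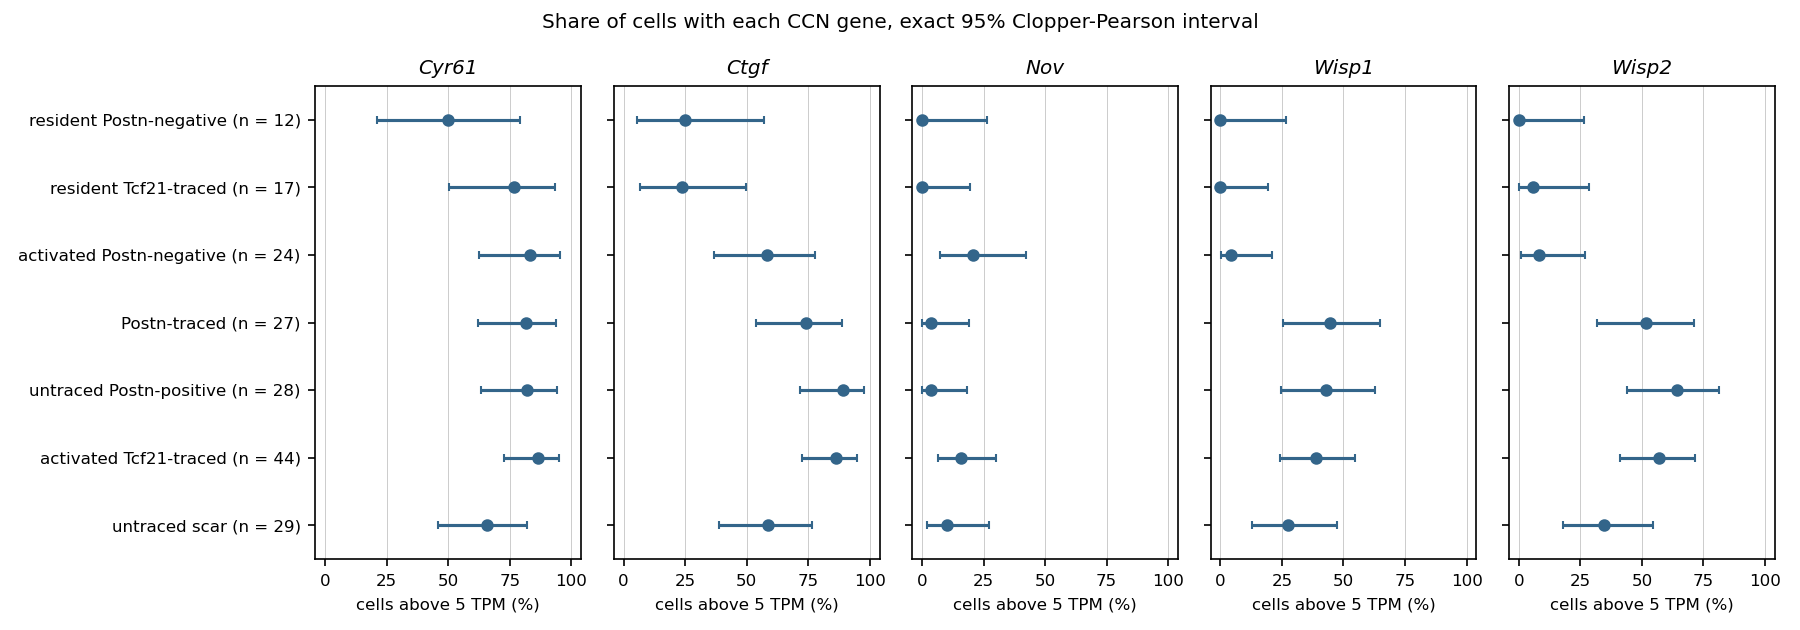
Share of cells above 5 TPM for each CCN gene in the 7 classes with 12 or more cells. Points are shares in percent and bars are exact 95% Clopper-Pearson intervals for counting error. For Wisp2 the interval of the activated Postn-negative class, up to 27%, lies below that of the Postn-traced class, from 31.9%.

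The level of a member in the cells that held it was set apart from the share of such cells. Among the cells with Ctgf, the mean was 8.64 ± 1.80 in 4 resident Tcf21-traced cells, 8.53 ± 2.16 in 38 activated Tcf21-traced cells, 8.64 ± 1.60 in 20 Postn-traced cells and 7.44 ± 2.41 in 14 activated Postn-negative cells, while 3 resident Postn-negative cells stood at 5.69 ± 1.90. Apart from those 3 cells, the means lay within an SD of each other. Among the cells with Cyr61 it was 8.10 ± 2.35 in 13 resident Tcf21-traced cells and 8.28 ± 2.26 in 38 activated Tcf21-traced cells, while the 6 resident Postn-negative cells stood at 10.57 ± 1.16. For Wisp2 it was 8.69 ± 1.68 in 14 Postn-traced and 8.34 ± 2.15 in 25 activated Tcf21-traced cells. Wisp1 was lower where detected, at 5.65 ± 1.39 in 12 Postn-traced and 6.18 ± 1.51 in 17 activated Tcf21-traced cells. On the TPM scale, which is per length, Wisp1 was thus lower on average, in the cells that held it, than Cyr61, Ctgf or Wisp2 in the same classes.

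The first comparison set Postn-traced against activated Postn-negative cells of the infarct, within the capture Jul29. The 6 untraced Postn-positive cells of that capture were left out, so that the classes differ in their Postn label as well as in tracing. Ctgf was higher in Postn-traced than in activated Postn-negative cells by 2.01 log2 units. On the linear scale, where TPM was averaged over cells before the log2 was taken, Ctgf differed by -0.11 log2 units. Single cells weigh more in such a mean, and the cell at 12.96 is in the Postn-negative class. Wisp2 was higher by 3.67, but by -0.41 among the cells with Wisp2 alone, of which 2 were Postn-negative. Wisp1 was higher by 2.42, by 4.01 on the linear scale and by 0.94 among the cells with Wisp1 alone (1 Postn-negative cell). Cyr61 differed by -0.78, and Nov differed by -0.88 but by 1.82 among the cells with Nov alone (1 traced cell). No difference exceeded the larger SD of its classes. Of the 5 members, 3 were more than 1 log2 unit higher and 0 lower, beside 16.7% of 15733 genes higher and 2.35% lower (genes above 5 TPM in at least 1 cell). With a pseudocount of 0.1 Cyr61 (-1.10) and Nov (-1.45) also passed 1, and on the linear scale Ctgf did not. Among the 5039 genes above 5 TPM in at least 20% of cells, a filter that Nov did not pass, 3 of 4 members were higher and 0 lower, beside 39.6% and 5.4% of all. Detected genes also differed between these classes, and among cells with 2000 to 4000 detected genes (21 in each class, a range chosen after the data were seen) the differences were 1.49 for Ctgf, 2.27 for Wisp1 and 3.03 for Wisp2. That range did not equalise depth, since its Postn-negative cells reached 3049 detected genes and its Postn-traced cells 3959.

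The next comparisons set activated against resident cells, which came from different captures, so that injury and capture cannot be told apart. In Tcf21-traced cells, activated minus resident, Ctgf differed by 5.03, more than the SD of either class, but by -0.11 among the cells with Ctgf alone, of which 4 were resident. With the median over cells Ctgf differed by 8.90, and its linear mean was 681 TPM in activated and 146 TPM in resident cells. Wisp2 differed by 4.42, also more than the SD of either class, and Wisp1 by 2.37, though by 0 with the median over cells. Cyr61 differed by just under 1 and Nov by 0.87. Thus 3 of 5 members were more than 1 log2 unit higher and 0 lower, beside 16.9% of genes higher and 2.65% lower. Nov also passed 1 on the linear scale (4.45), and with a pseudocount of 0.1 both Cyr61 (1.39) and Nov (1.33) did, as they did with each cell centred on its median detected gene (1.44 and 1.31). Under the 20% filter 3 of 4 members were higher and 0 lower, beside 44.1% and 5.54% of genes. Among cells with 2000 to 4000 detected genes (28 activated and 11 resident) Ctgf differed by 4.07, Wisp2 by 3.78 and Wisp1 by 1.48. Depth still differed there, as the resident cells reached 2887 detected genes and the activated cells 3925.

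The same comparison was made in cells labelled Postn-negative. Postn was nevertheless above 5 TPM in 3 of 12 resident and 3 of 24 activated cells of these classes. Of the 12 resident cells, 1 also held at least 3 myeloid markers. Activated minus resident Postn-negative cells differed by 2.25 for Cyr61 (by -1.44 among the cells with Cyr61 alone), 2.42 for Ctgf and 1.25 for Nov, but by 0.20 for Wisp1 and 0.57 for Wisp2. All were smaller than the larger SD of the classes. Thus 3 of 5 members were more than 1 log2 unit higher and 0 lower, beside 10.3% of genes higher and 5.2% lower. This count depends on the scale, as linear means gave 0.13 for Cyr61, 4.39 for Ctgf, 3.87 for Nov, 1.04 for Wisp1 and 5.35 for Wisp2, and the median over cells gave 0 for Nov. Under the 20% filter 2 of 4 were higher and 0 lower, beside 26.3% and 10.3% of genes. Among cells with 2000 to 4000 detected genes the difference of Cyr61 was 0.36 and that of Ctgf 2.58. Whether the activated minus resident differences of the Tcf21-traced and the Postn-negative cells differ from each other was not tested.

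Within the capture Nov4, the 19 untraced Postn-positive cells were compared with the 44 activated Tcf21-traced cells. Ctgf (9.10 ± 2.45 against 7.51 ± 3.31) differed by 1.58 and Wisp2 (6.48 ± 4.41 against 4.83 ± 4.40) by 1.65. Cyr61 differed by 0.31, but by -0.30 on the linear scale, -0.14 among the cells with the gene alone and -0.81 among cells with 2000 to 4000 detected genes. Wisp1 differed by 0.03, but by 2.14 with the median over cells, -0.17 on the linear scale, -0.11 with a pseudocount of 5 and -1.16 among the cells with the gene alone. Nov differed by -0.87, more than the SD of the untraced cells (0.42) but not that of the Tcf21-traced cells (2.34), and the other differences were within the SD of either class. Thus 2 of 5 members were more than 1 log2 unit higher and 0 lower, beside 5.05% of genes higher and 3.34% lower. On the linear scale neither of these 2 passed 1 (0.63 for Ctgf and 0.92 for Wisp2) and Nov was lower by more than 1 (-4.56), and among cells with 2000 to 4000 detected genes Ctgf differed by 1.02 and Wisp2 by 0.46. Under the 20% filter 2 of 4 were higher and 0 lower, beside 10.7% and 8.89% of genes.

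No member differed between the resident classes by more than 1 log2 unit in the mean, but the values for Cyr61 and Ctgf depended on the measure. Resident Tcf21-traced minus resident Postn-negative cells differed by 0.62 for Cyr61, but by 2.35 with the median over cells, -0.97 on the linear scale, -2.48 among the cells with the gene alone and -0.66 among cells with 2000 to 4000 detected genes. Ctgf differed by 0.46, but by -1.41 with the median over cells, 2.67 on the linear scale and 2.95 among the cells with the gene alone, and Wisp2 by 0.09, but by 1.03 on the linear scale and -0.03 with a pseudocount of 0.1. Nov differed by 0.14 and Wisp1 by 0.12. By class means 0 of 5 members were more than 1 log2 unit higher or lower, beside 8.65% of genes higher and 6.55% lower, and 0 of 4 under the 20% filter, beside 21.1% and 13.8%.

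All 28 untraced Postn-positive cells were also set against the 27 Postn-traced cells. Ctgf was higher by 1.64 and Wisp2 by 1.03 in the untraced cells, but these differences were -1.22 and -1.10 with the 6 untraced cells that share the capture of the traced cells, so that the pooled values rest on the other captures. Among the cells with the gene alone they were 0.31 and 0.01. Cyr61 differed by -0.18, but by -2.66 with those 6 cells and by 0.38 with the median over cells. Wisp1 differed by -0.38, but by -0.98 with those 6 cells and by 0.25 with the median over cells, and Nov differed by 0.89 with those 6 cells. The plot of differences shows the members against all genes.

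**Figure D3:**
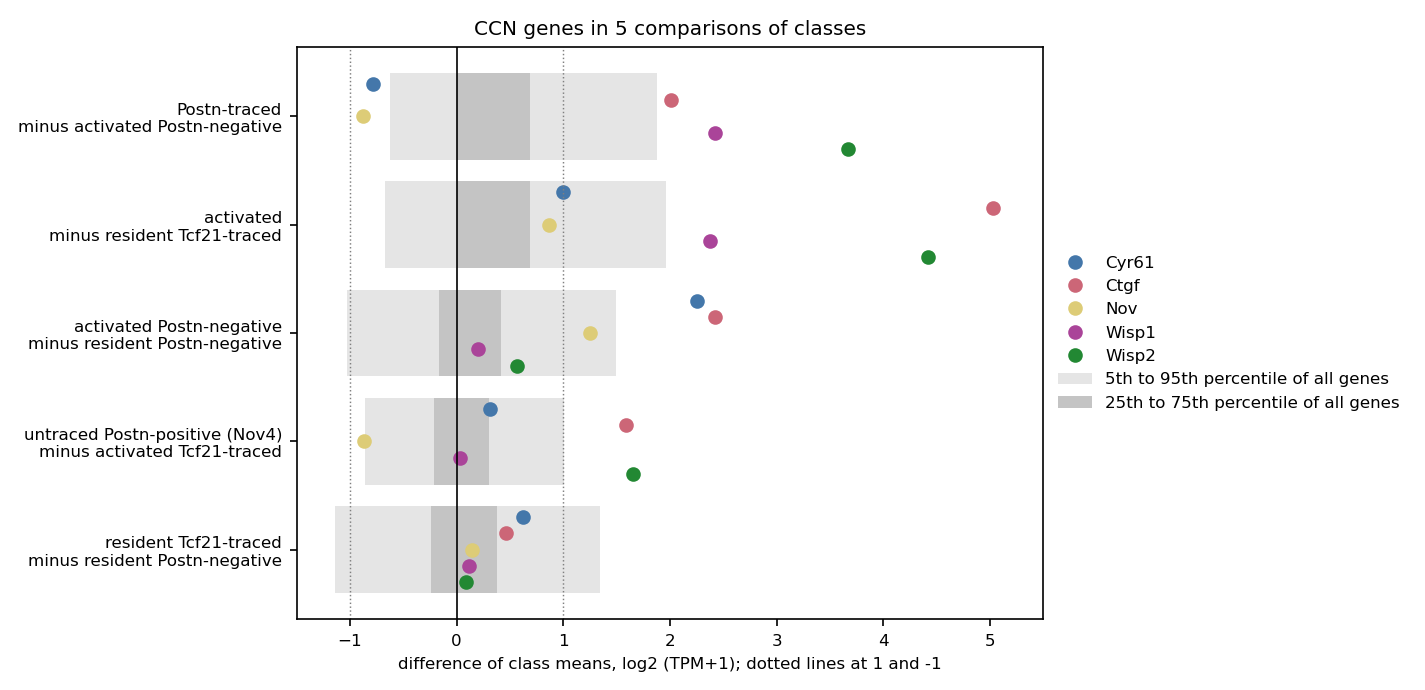
Difference of class means of each CCN gene in 5 comparisons, in log2 (TPM+1). Coloured points are members, and grey bars span the 5th to 95th and the 25th to 75th percentile of 15733 genes. These are genes above 5 TPM in at least 1 cell, many of them sparse. Of the 5039 genes above 5 TPM in at least 20% of cells, 39.6% and 44.1% are more than 1 log2 unit higher in the first and second comparisons. Ctgf and Wisp2 lie above the 95th percentile in the comparisons of Postn-traced with Postn-negative, of activated with resident Tcf21-traced, and of untraced Postn-positive with Tcf21-traced cells, while on the linear scale Ctgf differs by -0.11 in the first and among the cells with the gene alone Wisp2 differs by -0.41 in the first and Ctgf by -0.11 in the second. In the first Cyr61 and Nov lie below the 5th percentile (at 3.59 and 2.96), though Nov differs by 1.82 among the cells with the gene alone, and Nov does in the third (4.86). Wisp1 lies above the 95th percentile in the first (97.6) and the second (97.1), though with the median over cells it differs by 0 in the second. Cyr61 (98.5) and Ctgf (98.8) do so in activated against resident Postn-negative cells, though Cyr61 differs by -1.44 among the cells with the gene alone.

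The members were also summed within each cell. The median of the summed TPM of the 5 members was 243 in resident Postn-negative and 331 in resident Tcf21-traced cells. In the infarct it was 1105 in activated Postn-negative, 1146 in Postn-traced, 1317 in activated Tcf21-traced, 1481 in untraced Postn-positive and 591 in scar cells (756 without the 5 low cells). Activated Postn-negative cells thus had a median sum close to that of Postn-traced cells. The highest median rests on Nov4, as the untraced Postn-positive cells had 1091 in Jul29, 1367 in Nov11 and 1734 in Nov4.

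Cyr61 was the most abundant member in 6 of 12 resident Postn-negative, 10 of 17 resident Tcf21-traced and 16 of 24 activated Postn-negative cells (66.7%, interval 44.7% to 84.4%). In Postn-traced cells it led in 11 of 27, Ctgf in 9 and Wisp2 in 6. In activated Tcf21-traced cells Cyr61 and Ctgf each led in 16 of 44 and Wisp2 in 9. In untraced Postn-positive cells Ctgf led in 12 of 28, Wisp2 in 8 and Cyr61 in 7, but this order rests on Nov4, where Ctgf led in 11 of 19, while in Jul29 it led in 0 of 6 and Cyr61 in 3. Over all cells Wisp1 led in 2 and Nov in 1. No member was detected in 9 of 33 resident and 11 of 152 infarct cells, of which 5 were the low scar cells.

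**Figure D4:**
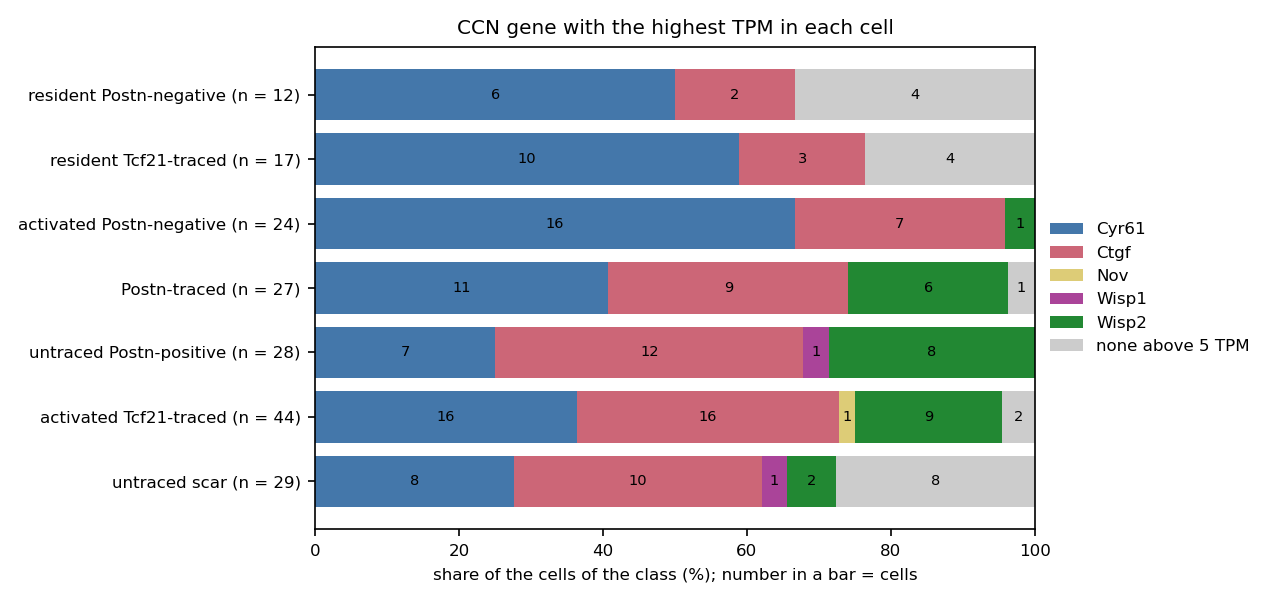
CCN gene with the highest TPM in each cell, as a share of the cells of each class in percent, with the number of cells in each bar. Grey marks cells with no member above 5 TPM. Cyr61 leads in 16 of 24 activated Postn-negative cells, and Wisp2 leads in 0 of 12 resident Postn-negative and 0 of 17 resident Tcf21-traced cells, which allows shares of up to 26.5% and 19.5%.

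Members were often detected in the same cells. No resident cell held 3 or more of the 5, whereas 43 infarct cells held 3, 29 held 4, and 4 activated Tcf21-traced cells held all 5. Of the 69 infarct cells with Wisp2, 66 also held Ctgf (95.7%), beside 75% of all infarct cells, and 60 held Cyr61 (87%), beside 80.3%. In the activated Tcf21-traced class all 25 cells with Wisp2 and all 17 cells with Wisp1 held Ctgf, which was in 86.4% of that class. Wisp1 and Wisp2 were both found in 30 infarct cells, and Wisp2 was thus in 60% of the 50 with Wisp1, beside 45.4% of all infarct cells. These shares were not compared by a test. By class, Wisp2 was in 14 of the 17 activated Tcf21-traced cells with Wisp1 (82.4%, beside 56.8% of the class), but in 6 of 12 Postn-traced (50%, beside 51.9%), 7 of 12 untraced Postn-positive (58.3%, beside 64.3%) and 3 of 8 scar cells (37.5%, beside 34.5%, or 41.7% without the low cells). The share among cells with Wisp1 was thus well above that of the class in the activated Tcf21-traced cells alone. In that class the number of detected genes correlated with Wisp1 (r = 0.61) and with Wisp2 (0.43). The 2 values were 0.41 and 0.03 in Postn-traced, 0.07 and 0.50 in untraced Postn-positive and 0.38 and 0.25 in scar cells, the low cells included. The part of depth in these shares was not tested.

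Pearson's r between members over all cells (33 resident and 152 infarct), which share captures and depth and are not independent replicates, was 0.52 for Ctgf and Wisp2, 0.33 for Cyr61 and Ctgf, 0.33 for Wisp1 and Wisp2, 0.30 for Ctgf and Wisp1 and 0.19 for Cyr61 and Wisp2. For Ctgf and Wisp2 it was 0.39 after each class and capture was centred on its mean. Over the 5 infarct classes it ranged from 0.30 in Postn-traced to 0.69 in scar cells (0.65 without the low scar cells). In untraced Postn-positive cells it was 0.42 with the captures pooled, but 0.11 in Nov4 and 0.71 in Jul29. For Wisp1 and Wisp2 it was 0.46 in activated Tcf21-traced cells but -0.04 in Postn-traced cells. The plot of pairs shows the same cells.

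**Figure D5:**
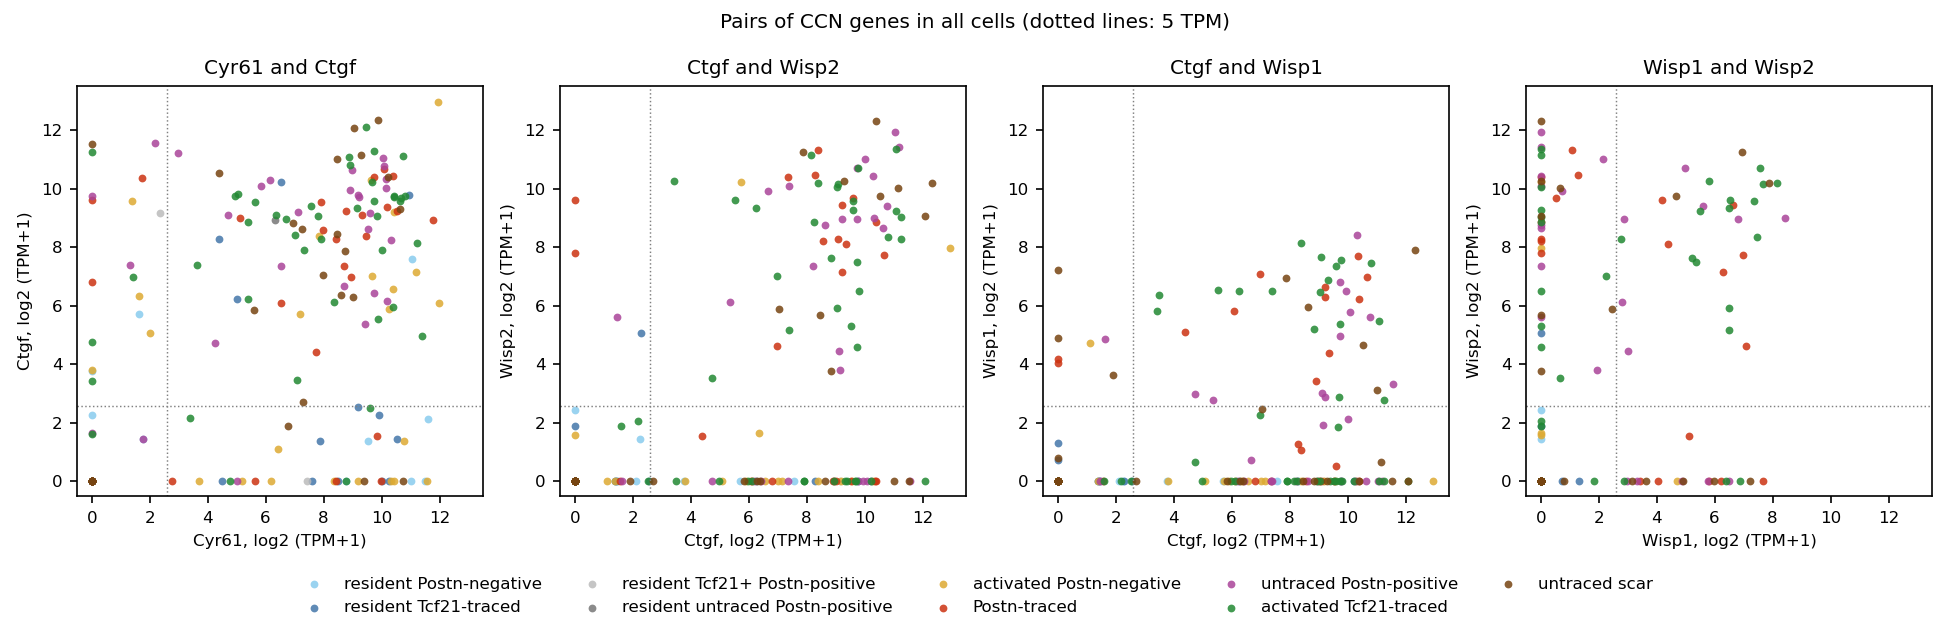
Levels of pairs of CCN genes in all cells, in log2 (TPM+1), coloured by class, with dotted lines at 5 TPM. For Ctgf and Wisp2 the upper left field is nearly empty (4 cells), while for Wisp1 and Wisp2 it holds 40 cells.

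The genes with the highest correlation with each member were taken among 7842 genes detected in at least 10% of cells (7843 for Nov, which is not among them). For Ctgf they were the collagen gene Col8a1 (r = 0.57), Postn (0.52), Wisp2 (0.52), Ddah1 (0.51) and the integrin gene Itgb5 (0.49). For Wisp1 they were Cthrc1 (0.59), the collagen crosslinking enzyme gene Lox (0.52), Acta2, which encodes α-smooth muscle actin (0.51), fibronectin Fn1 (0.51) and Palld (0.50). For Wisp2 they were the secreted Wnt modulator Sfrp2 (0.53), Lox (0.52), Ctgf (0.52), Postn (0.50) and AK137033 (0.49). Postn was thus among the first 5 for Ctgf and for Wisp2, and Lox for Wisp1 and for Wisp2, but neither was with class and capture centred. For Cyr61 the values were lower, with Rpl5 (0.39) first, then Ndufa1, S100a6 and Anxa3 (0.37 each) and Rpl36a (0.36), and for Nov lower still, with Mgll (0.36), Gpr133 (0.34), Sema3c (0.34), Ttc1 (0.30) and G6pc3 (0.30). In values this sparse such correlations are weak. With class and capture centred, Fos led for Cyr61 (0.38), and Col8a1 (0.49), Cthrc1 (0.50) and Sfrp2 (0.43) still led for Ctgf, Wisp1 and Wisp2. Wisp2 and Ddah1 also left the first 5 for Ctgf, Fn1 those for Wisp1, and S100a6 and Rpl36a those for Cyr61, while the 5 for Nov were the same. The number of detected genes itself correlated with Wisp1 (0.50), Wisp2 (0.44), Ctgf (0.44), Cyr61 (0.33) and Nov (0.093), and its part in these values was not tested.

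Over the lists of related genes, the median r with the 12 myofibroblast genes drawn by the study was 0.34 for Ctgf, 0.38 for Wisp1 and 0.31 for Wisp2, beside 0.11, 0.12 and 0.11 over all ranked genes. For Cyr61 it was 0.12, beside 0.085. With class and capture centred these medians were lower, at 0.18, 0.26 and 0.15 for Ctgf, Wisp1 and Wisp2, beside 0.065, 0.085 and 0.064, and at 0.093 for Cyr61, beside 0.071. With 26 immediate early and dissociation genes, which respond quickly to tissue digestion, the median r was 0.19 for Cyr61, 0.0078 for Ctgf, -0.048 for Wisp1 and -0.060 for Wisp2, but with class and capture centred 0.20, 0.090, 0.019 and 0.039, so that the sign turned for Wisp1 and Wisp2.

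Levels of those genes beside Cyr61 are relevant because Cyr61 is itself an immediate early gene. Fos stood at 12.41 ± 1.06 in resident Postn-negative, 11.82 ± 1.19 in resident Tcf21-traced, 10.87 ± 2.85 in activated Postn-negative, 10.07 ± 2.90 in Postn-traced and 9.51 ± 3.67 in activated Tcf21-traced cells. Of the 28 genes of that list, 3 were more than 1 log2 unit higher and 7 lower in Postn-traced than in activated Postn-negative cells (Ier2 by -2.83, Klf4 by -2.36 and Junb by -2.30), with a list median of -0.61 beside 0.19 over all genes. In activated against resident Tcf21-traced cells 3 were higher and 13 lower (Ier3 by 2.91, Egr1 by -2.84 and Jun by -2.56). In activated against resident Postn-negative cells 3 were higher and 8 lower (Myc by 2.95, Atf3 by -2.47 and Fosb by -2.30). In the within-capture comparisons 1 was higher and 2 lower in untraced Postn-positive than in activated Tcf21-traced cells, and 1 was higher and 8 lower in resident Tcf21-traced than in resident Postn-negative cells. Over all genes the shares higher and lower in these comparisons, in the same order, were 16.7% and 2.35%, 16.9% and 2.65%, 10.3% and 5.2%, 5.05% and 3.34%, and 8.65% and 6.55%. The counts were the same among the 25 listed genes that passed the 20% filter. The shares of all genes under that filter, in the same order, were 39.6% and 5.4%, 44.1% and 5.54%, 26.3% and 10.3%, 10.7% and 8.89%, and 21.1% and 13.8%. The part of dissociation in the Cyr61 levels was not tested.

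CCN proteins act through receptors whose genes were detected in the same classes. Itgb1, the integrin β1 chain shared by many CCN receptors, stood at 5.80 ± 3.32 in resident Postn-negative, 6.43 ± 3.15 in resident Tcf21-traced, 5.90 ± 3.11 in activated Postn-negative, 7.02 ± 3.05 in Postn-traced, 8.07 ± 2.14 in activated Tcf21-traced, 8.42 ± 1.22 in untraced Postn-positive and 6.29 ± 3.35 in scar cells (7.13 ± 2.23 without the 5 low cells). Lrp1, an endocytic receptor that binds Ctgf, varied less, with means from 4.35 ± 2.24 in resident Postn-negative to 5.53 ± 1.49 in resident Tcf21-traced cells over the 7 large classes. Of 24 listed receptors and binding partners, 23 were measured. In Postn-traced against activated Postn-negative cells 7 were higher and 2 lower, led by Fn1 (5.98), Itgb5 (1.52) and Bgn (1.51), with a median of 0.18 beside 0.19 over all genes. In activated against resident Tcf21-traced cells 7 were higher and 3 lower, led by Fn1 (4.57), Gja1 (3.52) and Itgav (2.68), with a median of 0.11 beside 0.16 over all genes. Of all genes, 16.7% and 16.9% were higher and 2.35% and 2.65% lower in these comparisons, or 39.6% and 44.1% under the 20% filter, where 7 of 14 receptors and partners were higher in each. In the remaining comparisons, 5 were higher and 2 lower in activated than in resident Postn-negative cells, 1 higher and 2 lower in untraced Postn-positive than in Tcf21-traced cells, and 2 higher and 2 lower between the resident classes. The shares of all genes there were 10.3% and 5.2%, 5.05% and 3.34%, and 8.65% and 6.55%. Of the 14 that passed the 20% filter, 4, 1 and 2 were higher there, beside 26.3%, 10.7% and 21.1% of genes.

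Genes of the pathways that are known to induce Ctgf, Cyr61 and Wisp1 were counted in the same way, beside the same shares of all genes. Of 24 TGF-β ligands, receptors, SMADs and early targets, 10 were higher and 1 lower in Postn-traced than in activated Postn-negative cells, led by Ltbp2 (5.16), Tgfb3 (4.64) and Tgif1 (3.14), with a median of 0.85 beside 0.19 over all genes. In activated against resident Tcf21-traced cells 10 were higher and 3 lower, among them Ltbp2 (4.46) and Tgfb3 (2.60), with a median of 0.81 beside 0.16. Under the 20% filter 10 of 20 were higher in each, beside 39.6% and 44.1% of genes, with medians of 1.17 and 1.02 beside 0.73 and 0.84 over all genes. In activated against resident Postn-negative cells, where Ctgf also differed by more than 1, 5 were higher and 6 lower (10.3% and 5.2% of all genes), with a median of -0.19 beside 0.00 over all genes. In untraced Postn-positive against Tcf21-traced cells 4 were higher and 2 lower (5.05% and 3.34% of all genes), led by Tgfb2 (1.75), and between the resident classes 5 were higher and 1 lower (8.65% and 6.55%) although the median was -0.26. Under the 20% filter 4 of 20 were higher in each of these 3 comparisons, beside 26.3%, 10.7% and 21.1% of genes. In the same order 6, 2 and 1 were lower, beside 10.3%, 8.89% and 13.8% of genes. The medians were then -0.48, 0.25 and -0.32, beside 0.35, 0.03 and 0.18 over all genes.

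Of the 20 YAP/TEAD regulators 19 were measured. In Postn-traced against activated Postn-negative cells 6 were higher and 1 lower, beside 16.7% and 2.35% of all genes. In activated against resident Tcf21-traced cells 5 were higher and 0 lower, beside 16.9% and 2.65% of all genes. Wwtr1, which encodes the YAP partner TAZ, led in each, at 2.07 and 2.64. Under the 20% filter 5 of 11 regulators were higher in each, beside 39.6% and 44.1% of all genes. Of 24 YAP/TEAD targets other than CCN genes, 6 were higher and 3 lower in the first of these comparisons (Dlc1 by 2.41, Gadd45b by 1.74 and Axl by -1.70) and 3 were higher and 0 lower in the other (Ccdc80 by 1.26). The medians of the targets were 0.36 and 0.17 and those of the regulators 0.39 and 0.71, beside 0.19 and 0.16 over all genes. Of the targets, 6 of 12 and 3 of 12 were higher under that filter. Amotl2, Lats2 and Tead1 are listed both as regulators and as targets, and Tgfb2 is also in the TGF-β list, so these lists are not separate. In activated against resident Postn-negative cells, which came from different captures, 4 regulators and 3 targets were higher and 0 lower, beside 10.3% and 5.2% of all genes. In untraced Postn-positive against Tcf21-traced cells 2 regulators were higher and 2 lower, and 3 targets were higher and 1 lower, beside 5.05% and 3.34%. Between the resident classes the counts were 2 and 2 for the regulators and 4 and 1 for the targets, beside 8.65% and 6.55%. In these 3 comparisons 4, 2 and 2 of 11 regulators and 3, 2 and 4 of 12 targets were higher under that filter, beside 26.3%, 10.7% and 21.1% of genes.

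Of 29 Wnt targets and inputs 28 were measured. In Postn-traced against activated Postn-negative cells 8 were higher and 0 lower, led by Sfrp2 (4.17), Dkk3 (3.90) and Ctnnb1 (2.99), and in activated against resident Tcf21-traced cells 5 were higher and 1 lower, led by Sfrp2 (4.36). The medians were 0.23 and 0.09, beside 0.19 and 0.16 over all genes, of which 16.7% and 16.9% were higher. With the 20% filter these counts were 7 of 11 and 5 of 11, beside 39.6% and 44.1%. Activated minus resident Postn-negative cells gave 3 higher and 3 lower (10.3% and 5.2% of all genes), untraced Postn-positive minus Tcf21-traced cells gave 2 and 1 (5.05% and 3.34%), and the resident classes gave 4 and 1 (8.65% and 6.55%). With that filter 3, 1 and 4 of 11 were higher, beside 26.3%, 10.7% and 21.1%.

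The 12 myofibroblast genes drawn by the study, apart from the CCN genes, were chosen on these cells, and are given for scale. All 12 were higher in Postn-traced than in activated Postn-negative cells (median 3.73, led by Postn at 10.37, on which these classes are defined) and in activated than in resident Tcf21-traced cells (median 2.02), beside 16.7% and 16.9% of all genes. Wisp2, with 3.67 and 4.42, was just below the first of those medians and above the other, and Ctgf, with 2.01 and 5.03, was below the first and above the other. In activated against resident Postn-negative cells 3 of the 12 were higher and 0 lower (10.3% and 5.2% of all genes), in untraced Postn-positive against Tcf21-traced cells 7 and 0 (5.05% and 3.34%), and between the resident classes 4 and 0 (8.65% and 6.55%). Of the 11 that passed the 20% filter, 3, 7 and 4 were higher, beside 26.3%, 10.7% and 21.1%, so that the first of these counts was close to the share of all genes. Smooth muscle markers were summed in the same classes. Their summed mean was 49.5 TPM in resident Postn-negative, 103 in resident Tcf21-traced, 87.2 in activated Postn-negative, 746 in Postn-traced, 953 in untraced Postn-positive, 462 in activated Tcf21-traced and 227 TPM in scar cells (275 without the 5 low cells). The value of the untraced Postn-positive cells depended on the capture, at 77.2 in Jul29, 1113 in Nov11 and 1205 TPM in Nov4, so that in the capture of the Postn-traced cells it lay below theirs. Tagln was the most abundant of the 6 in each of the last 4 classes, while Myh11 and Cnn1 were at 0 in untraced Postn-positive cells and no marker of the 6 was at 0 in all cells of the other 3 classes. Their part in the CCN values was not tested.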

How the data were processed

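Single cells were captured on the Fluidigm C1 system, amplified with SMARTer chemistry and tagged with Nextera. The authors deposited log2 values, as log2 (TPM+1), for 17171 genes in 33 resident and 152 infarct cells, with a pseudocount of 1. The header names TPM and the title FPKM, and the values of a cell, converted back, sum to between 999257 and 1000000, so they were read as TPM. The submitters' processing notes name Bowtie 1.0.0, eXpress 1.5.1 and the build mm10. A further 3 columns without a sample were not used.

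Cells took their class from the labels (9 classes) and their capture from their names (4 captures). Class values are means over cells, a difference is between class means, and shares use a minimum of 5 TPM with exact 95% Clopper-Pearson intervals. No test was run, because no label ties cells to mice. The members and the 7 gene lists were chosen with earlier results of these data known. Some genes, such as Fn1 and Lrp6, are shared between lists. Genes named are the CCN genes, the 5 genes with the highest Pearson correlation with each member among genes detected in at least 10% of cells, and up to 3 genes of each list with the largest difference among those detected in at least 50% of cells of the higher class. Levels of Fos, Itgb1 and Lrp1, the reading of single cells, and the count of scar cells under 300 detected genes were chosen after the values were seen. Alternatives changed the scale, the centre, the pseudocount (0.1 and 5), the centring of each cell on its median detected gene, the detection minimum and the cells. Differences on the linear scale are in log2 units, between the log2 of class means of TPM with the pseudocount of 1 added. The code for differences was tested on simulated data. Gene positions are on GRCm38.p6. Computing was in Python 3.11.15 with pandas 2.3.3 and NumPy 2.4.6, intervals came from SciPy 1.17.1 and plots from Matplotlib 3.10.9.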

Additional observations from a re-analysis of the deposited data

How the results depend on the processing

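Of 236 alternative values of the member differences, 220 moved by less than the SD between cells, 10 moved by more and 6 changed sign from a value past 1 log2 unit. The linear mean gave -0.11 for Ctgf (Postn-traced minus activated Postn-negative), 4.45 for Nov and 5.19 for Wisp1 (activated minus resident Tcf21-traced), 3.87 for Nov, 1.04 for Wisp1 and 5.35 for Wisp2 (activated minus resident Postn-negative), and -4.56 for Nov (untraced Postn-positive minus Tcf21-traced). Medians over cells gave 8.90 for Ctgf and 0.00 for Wisp1 (activated minus resident Tcf21-traced). A pseudocount of 0.1 gave 0.41 for Wisp1 between the resident classes. Cells with the gene alone gave 1.82 for Nov and -0.41 for Wisp2 (Postn-traced minus activated Postn-negative), -0.11 for Ctgf (activated minus resident Tcf21-traced) and -1.44 for Cyr61 (activated minus resident Postn-negative), and gave no value where a class had no such cell. Against Postn-traced cells, the 6 untraced cells from Jul29 gave -1.22 for Ctgf, -1.10 for Wisp2 and -2.66 for Cyr61. The cause was not tested for any of these.

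Before centring, the level of the median detected gene of a cell differed by -0.52 between Postn-traced and activated Postn-negative cells. It differed by -0.45 between activated and resident Tcf21-traced cells, by -0.26 between untraced Postn-positive and Tcf21-traced cells, and by -0.12 between untraced Postn-positive and Postn-traced cells. With each cell centred on that median, Ctgf differed by 2.53, 5.48, 1.85 and 1.76, and Wisp2 by 4.19, 4.87, 1.92 and 1.15. The part of depth in the median was not tested. The 30 values of each set, with centring, with a pseudocount of 5, without cells under 50% of the median detected genes of their capture, and in cells with 2000 to 4000 detected genes (chosen after seeing the data) stayed within the SD between cells, a wide bar, within which calls past 1 log2 unit were lost or gained. In the last of these sets Cyr61 went from 2.25 to 0.36 (activated minus resident Postn-negative) and Wisp2 from 1.65 to 0.46 (untraced Postn-positive minus Tcf21-traced) and from 1.03 to 0.91 (untraced Postn-positive minus Postn-traced), while Ctgf between the resident classes went from 0.46 to 1.26. The range of 2000 to 4000 bounds the number of detected genes but does not match the classes in it. With a pseudocount of 5 Nov went from 1.25 to 0.75 (activated minus resident Postn-negative). Of 150 alternative shares of cells, 144 stayed within the interval. Of 10 alternatives for the genes most like a member, 2 kept at least 4 of the 5 genes. Of 140 alternative list counts, 89 stayed within a factor of 1.5. No paired analysis was possible because no result comes from a test and the replicate numbers only name cells. Cells of several mice were pooled and none can be assigned to a mouse, so the spread between mice is not known, and the numbers of cells limit every share.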
